A study of Mus musculus with 75 samples.

Results

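The last step into replicative senescence, from passage 5 (P5) to passage 7 (P7), was described in mouse skin fibroblasts by comparing the 4 RNA-seq libraries labelled P7 with the 4 labelled P5. These 8 libraries were chosen by their labels alone and are 8 of the 44 RNA-seq libraries among the 75 samples of the series. The study followed fibroblasts over passages 1, 3, 5 and 7 (P1 to P7) by RNA-seq, ATAC-seq and DNA methylation, and altered the transcription factors E2f4, Tead1 and Atf3 in other fibroblast cultures. Every library of P5 and P7 came from skin fibroblasts of female C57BL/6 mice aged 2 months, with no treatment or transgene. The groups differ in the number of passages, and so in time in culture. Neither labels nor methods say whether the RNA-seq replicates came from separate animals or cultures, or whether a replicate number marks the same culture at P5 and P7. For DNA methylation the paper speaks of independent series of samples, without linking the RNA-seq libraries to them. The p-values below thus measure the spread between these samples, which may be technical.

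Replicative senescence is the lasting arrest that primary cells enter after repeated division. The inhibitors p16INK4a and p21 hold the retinoblastoma family active, and with it E2F factors and the DREAM complex (a repressor that contains E2F4) silence genes of DNA replication and mitosis. Senescent fibroblasts stay metabolically active, lose lamin B1 and secrete cytokines, growth factors and proteases, known as the senescence-associated secretory phenotype, in which AP-1 and NF-kB are known regulators.

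The deposited values are read counts per gene, and the 8 libraries held between 13866009 and 15725823 counts. Levels are given as CPM, counts scaled to the library total and the TMM factor, for replicates 1 to 4 in that order. A fold change is on the log2 scale of the edgeR fit, followed after ± by its standard error. Each adjusted p is from edgeR's quasi-likelihood test over the 13442 genes tested of 24984. Replicates of a passage differed beyond sampling noise, since chi-square divided by its degrees of freedom was 10.6 to 41.1 over their pairs. The chi-square ratio was 31.1 to 41.1 for pairs with P7 replicate 1 and 10.6 to 15.8 for the other P7 pairs. In P5 it was 10.8 for replicates 1 and 2, 12.7 for 3 and 4, and 16.1 to 33.9 for the rest. P5 replicates 3 and 4 stood apart on the first principal component over all tested genes (37.2% of the variance). There they lay at -18.5 and -13.6, P5 replicates 1 and 2 at -31.4 and -31.7, and the P7 libraries between 20.03 and 29.1. On the second component replicates 3 and 4 lay at 11.8 and -17.4. Over the 500 most variable genes the P5 libraries lay at -16.0, -15.6, -13.3 and -12.3 on the first component. Without P5 replicates 3 and 4, 593 genes were called in place of the 467 given below, and 389 genes were in both lists. The fibroblast label was met by its markers. Of 13 fibroblast markers 2 rose (Lum and Twist2), 0 fell and the median log2 fold change was -0.01, and their summed level was 33659 to 42241 CPM at P5 and 36313 to 39086 CPM at P7. Leaving out P5 replicate 1, P7 replicate 1 or P7 replicate 3 left 1 of the 2, and without P7 replicate 1 or 4 there was 1 that fell. Leukocyte markers summed to 52.1 to 59.1 CPM at P5 and 121 to 139 CPM at P7, and 2 of 18 rose (Cd53 and Csf1r) and 1 fell (Cd74), or 2 without P7 replicate 1 and 4 without P7 replicate 4. Most of the rise of the sum lay in Cd53 (3.87-fold), and the median log2 fold change of the 18 markers was 0.09. Their defining genes Ptprc, Adgre1 and Tyrobp held 8, 8 and 12 counts over the P5 libraries and 11, 17 and 8 over the P7 libraries. Of 10 endothelial markers 0 rose and 3 fell (Vwf, Pecam1 and Cldn5), of 3 tested adipocyte markers 2 fell (Plin4 and Pparg), of 5 pericyte markers 1 rose (Rgs5) and 1 fell (Cspg4), of 8 skeletal muscle markers 1 rose (Acta1), of 6 markers of Schwann cells and melanocytes 1 fell (Mlana), and of 10 keratinocyte markers 0 passed the test. The call of Rgs5 was lost without P5 replicate 3 or P7 replicate 4, that of Acta1 without P7 replicate 2, and that of Mlana without P5 replicate 4 or P7 replicate 1 or 3. Of 7 T and B cell markers, 5 had no count in any of the 8 libraries. The marker counts are at an adjusted p under 0.05, which 7.67% of all genes passed upward and 9.1% downward. In most of these short lists, 1 or 2 members are near what those shares give. In bulk RNA, fewer cells of a type and less RNA per cell cannot be told apart.

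**Figure D1:**
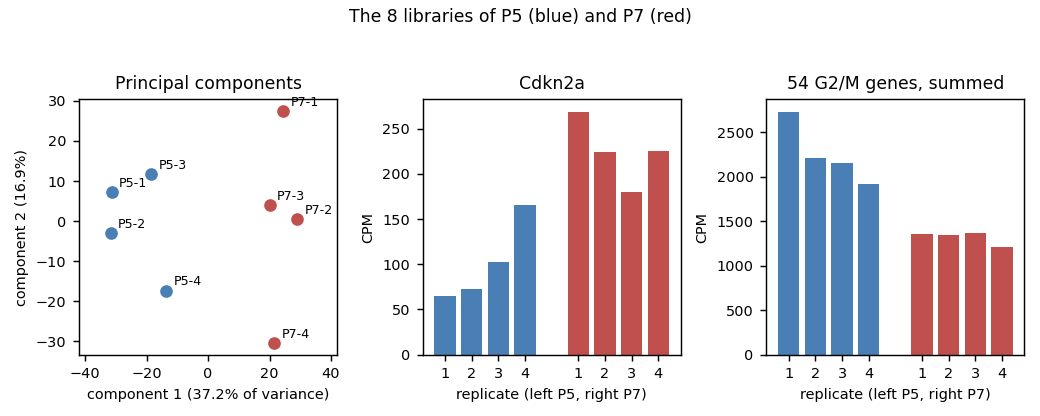
Left, each library of P5 (blue) and P7 (red) by its first and second principal components of log2 CPM. Middle and right, bars from 0 give the CPM of Cdkn2a and the summed CPM of the 54 G2/M genes in each library by replicate number. The passages separate on the first component, and Cdkn2a and the G2/M sum differ most between libraries within P5, where Cdkn2a spans 64.4 to 166 CPM.

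Between P5 and P7, 34 of 43 S-phase genes, 45 of 54 G2/M genes and 24 of 42 interferon-stimulated genes fell, and no member of these lists rose. In the other direction 9 of 17 contractile genes, 7 of 15 cytokines, 6 of 17 chemokines and 11 of 33 growth factors and IGF-binding proteins rose, with 0, 0, 1 and 1 lower, and the inducible cyclooxygenase Ptgs2 rose 4.74-fold. These counts are at an adjusted p under 0.05, which 7.67% of all genes passed upward and 9.1% downward. With an adjusted p under 0.05 and a change over 2-fold, 467 genes (3.47% of those tested) were called, 160 higher at P7 (1.19%) and 307 lower (2.28%). At an adjusted p under 0.05 alone there were 2254 genes (16.8%), 1031 higher and 1223 lower. These counts without P5 replicate 1 were 398 called and 1582 past the adjusted p, 684 higher and 898 lower. The median log2 fold change over all genes tested was -0.01. The libraries of P5 and P7 did not overlap for 136 of the 160 called higher (85%) and 272 of the 307 called lower (88.6%), against 7.47% and 8.51% of all genes without overlap in each direction. The calls were made on these same libraries, so the shares describe the called genes and add no support to the calls.

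Both sets were also read at the step before. The P5 libraries serve both steps, so the 2 changes are not independent and their values are only set side by side. Genes called higher at P7 had a median log2 fold change of 1.42 from P5 to P7, 0.20 from P3 to P5 and -0.05 from P1 to P3. Of these 160 genes, 123 did not pass an adjusted p of 0.05 from P3 to P5, beside 9580 of all 13442 genes tested, a similar share. Genes called lower had medians of -1.36, -0.96 and -0.32. At an adjusted p under 0.05, 197 of the 307 were also lower at P5 than at P3, beside 2057 of all 13442 genes tested. The step from P3 to P5 gave 523 called genes (3.89%), 113 higher at P5 (0.841%) and 410 lower (3.05%).

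**Figure D2:**
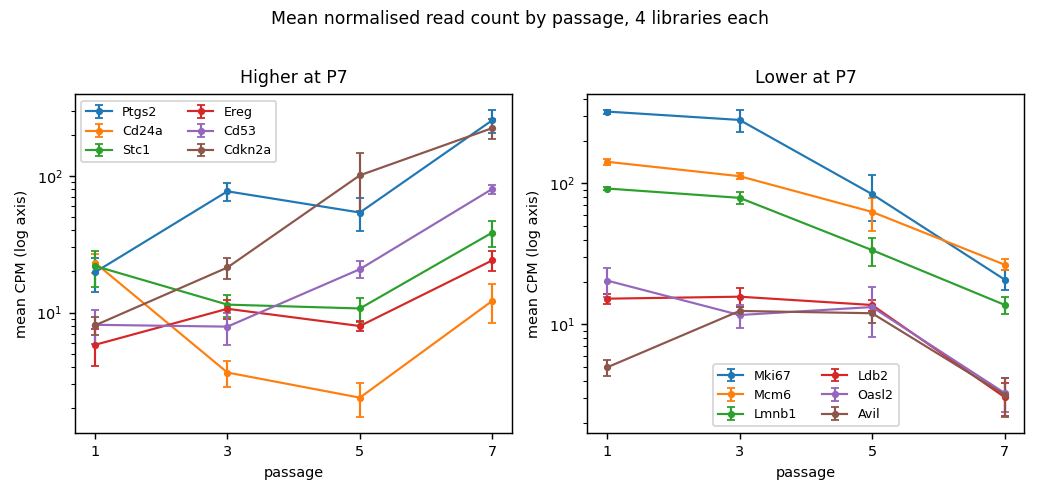
Mean CPM of 12 named genes (log axis) against passage number, with error bars of 1 SD over 4 libraries. Ptgs2, Cd24a, Stc1 and Ereg were near or below their P3 level at P5 and higher at P7, Cd53 and Cdkn2a were higher at each step after P3, and Mki67, Mcm6 and Lmnb1 were lower at each step after P3.

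Among the genes that rose most was Ptgs2 (chr1:150100031-150108234 on mm10, the build of all coordinates here), the inducible cyclooxygenase that commits arachidonic acid to prostaglandins. It measured 64.3, 67.7, 48.3 and 35.9 CPM in the P5 libraries and 215, 302, 297 and 211 CPM in the P7 libraries. All P7 libraries were at least 3 times the highest P5 library, with no overlap (log2 fold change 2.24 ± 0.20, adjusted p = 8.78e-07). Cd24a (chr10:43579169-43584265), a small glycosylated surface protein, measured 2.58, 3.04, 2.46 and 1.46 CPM in the P5 libraries and 10.8, 12.9, 17.1 and 7.94 CPM in the P7 libraries, again without overlap (log2 fold change 2.35 ± 0.24, adjusted p = 2.11e-06). Cd53 (chr3:106758861-106790149), a tetraspanin known from leukocytes, measured 23.9, 21.4, 21.2 and 16.7 CPM in the P5 libraries and 83.3, 75.00, 87.8 and 75.9 CPM in the P7 libraries. Its 4 P7 libraries lay close together and far above P5 (log2 fold change 1.95 ± 0.17, adjusted p = 6.81e-07).

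Stc1, a secreted glycoprotein of calcium and phosphate handling, measured 12.5, 12.6, 9.18 and 8.61 CPM in the P5 libraries and 27.7, 48.7, 38.7 and 39.1 CPM in the P7 libraries (log2 fold change 1.85 ± 0.20, adjusted p = 4.32e-06). Ereg, an EGF receptor ligand, measured 8.40, 7.95, 8.46 and 7.08 CPM in the P5 libraries and 19.01, 28.5, 25.98 and 23.01 CPM in the P7 libraries (log2 fold change 1.6 ± 0.17, adjusted p = 3.97e-06). Neither gene overlapped between passages, and Ereg varied little within P5. Sod3, the extracellular superoxide dismutase, measured 68.7, 92.7, 91.4 and 128 CPM in the P5 libraries and 292, 313, 299 and 225 CPM in the P7 libraries (log2 fold change 1.57 ± 0.23, adjusted p = 7.49e-05), and its highest P5 library was replicate 4. Cck, the precursor of the peptide cholecystokinin, measured 204, 126, 239 and 176 CPM in the P5 libraries and 639, 562, 523 and 392 CPM in the P7 libraries (log2 fold change 1.51 ± 0.20, adjusted p = 3.05e-05). In both genes the lowest P7 library was replicate 4, still above all of P5. Atp1b1, a subunit of the sodium pump, rose from 7.26 to 10.3 CPM at P5 to 17.0 to 29.3 CPM at P7 (log2 fold change 1.57 ± 0.22, adjusted p = 4.5e-05). Its exons overlap those of Nme7 on the other strand, and the counting ignored strand, so its reads cannot be told from that gene's. Myh11, the smooth muscle myosin heavy chain, measured 15.9, 23.2, 12.9 and 25.6 CPM in the P5 libraries and 32.4, 78.5, 58.03 and 61.9 CPM in the P7 libraries (log2 fold change 1.58 ± 0.31, adjusted p = 0.00144), with P7 replicate 1 well under the other P7 libraries. Prl2c2, a secreted prolactin relative, rose from 11.4 to 22.5 CPM to 41.9 to 102 CPM (log2 fold change 1.76 ± 0.25, adjusted p = 5.48e-05), and its near-identical copies make that level uncertain.

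**Figure D3:**
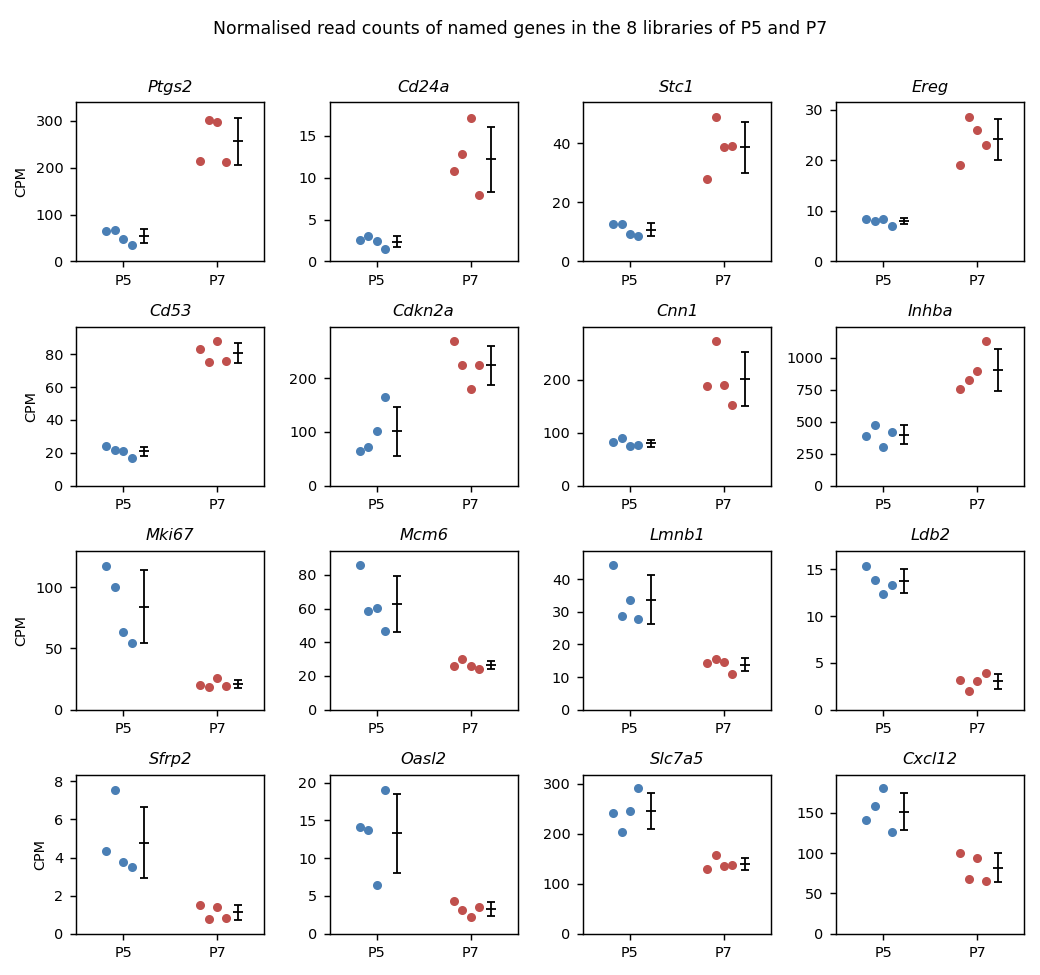
CPM of 16 named genes in each P5 (blue) and P7 (red) library, with the mean and 1 SD of each passage beside the points, on axes from 0. Passages are separated in all 16 panels; the widest spread within P5 relative to the gap is in Cdkn2a (64.4 to 166 CPM at P5, 179 to 269 CPM at P7).

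Among genes that fell most, Ldb2 (chr5:44435955-44799759), an adaptor of LIM-domain transcription factors, measured 15.4, 13.9, 12.4 and 13.3 CPM in the P5 libraries and 3.21, 2.01, 3.07 and 3.93 CPM in the P7 libraries. Every P7 library was far below every P5 library (log2 fold change -2.16 ± 0.17, adjusted p = 2.95e-07). Avil, the actin-binding protein advillin, measured 11.4, 11.1, 10.9 and 14.7 CPM in the P5 libraries and 4.35, 2.24, 3.61 and 2.52 CPM in the P7 libraries (log2 fold change -1.91 ± 0.18, adjusted p = 1.58e-06). Sfrp2 (chr3:83765750-83774314), a secreted Wnt antagonist, measured 4.33, 7.54, 3.75 and 3.51 CPM in the P5 libraries and 1.53, 0.772, 1.38 and 0.816 CPM in the P7 libraries (log2 fold change -2.08 ± 0.42, adjusted p = 0.00216), and Cbln1, a secreted synapse organiser, measured 1.36, 1.59, 2.33 and 1.46 CPM in the P5 libraries and 0.153, 0, 0.231 and 0.223 CPM in the P7 libraries (adjusted p = 0.00358). Neither overlapped, but Cbln1 had no count in P7 replicate 2 and few in the others, so the size of its change is poorly fixed. The other genes that fell most were Oasl2, an interferon-stimulated gene described below, and 5 genes of mitosis, Mki67 (-2.01), Kif14 (-1.85), Shcbp1 (-1.84), Troap (-1.82) and Cenpf (-1.82), with log2 fold changes in parentheses.

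Of the 30 gene lists, the G2/M and S-phase lists had the lowest medians and the largest share of members that fell. Of 43 S-phase genes 0 rose, 34 fell (17 of them over 2-fold) and the median log2 fold change was -0.86. Of 54 G2/M genes 0 rose, 45 fell (40 over 2-fold) and the median was -1.27, beside -0.01 over all genes. Their summed levels were 897 to 1351 CPM at P5 and 619 to 681 CPM at P7 for the S-phase genes, and 1913 to 2731 and 1207 to 1364 CPM for the G2/M genes. At the step before, from P3 to P5, the medians were -0.93 and -1.14. The test of a difference between the steps passed for 0 members of either list and for only 1.31% of all genes. That 0 is near the share of all genes and does not show that the steps were equal.

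Mcm6, a subunit of the replicative helicase, measured 85.9, 58.4, 60.5 and 46.5 CPM in the P5 libraries and 25.95, 30.02, 25.8 and 24.4 CPM in the P7 libraries (log2 fold change -1.24 ± 0.13, adjusted p = 3.36e-06). Mki67, the proliferation antigen Ki-67, measured 118, 100.3, 63.8 and 54.3 CPM in the P5 libraries and 20.2, 18.2, 25.7 and 19.2 CPM in the P7 libraries (log2 fold change -2.01 ± 0.20, adjusted p = 1.58e-06). In both genes P5 replicate 1 was highest and all P7 libraries lay below P5. Exo1, a nuclease of DNA repair, fell from 6.91, 4.70, 6.20 and 4.57 CPM at P5 to 1.37, 1.93, 2.08 and 1.41 CPM at P7 (log2 fold change -1.72 ± 0.19, adjusted p = 5.43e-06). Dscc1, which helps to load the replication clamp, had the lowest fold change of the S-phase list at levels of about 1 CPM (log2 fold change -1.97 ± 0.40, adjusted p = 0.00202). Nuf2, of the kinetochore, fell from 27.8, 18.9, 15.96 and 12.7 CPM at P5 to 8.55, 5.25, 5.38 and 4.60 CPM at P7 (log2 fold change -1.67 ± 0.20, adjusted p = 1.1e-05), and Cenpf, another kinetochore protein, fell from 28.4, 32.2, 17.96 and 16.2 CPM at P5 to 6.87, 5.71, 7.38 and 6.90 CPM at P7 (log2 fold change -1.82 ± 0.20, adjusted p = 3.68e-06). Each of these falls held without overlap between the passages.

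Among E2F and DREAM genes 1 of 17 rose, 6 fell and the median was -0.17. The members that fell most are themselves cell cycle dependent: Mybl2, which activates late cell cycle genes, fell from 10.5, 7.05, 8.72 and 8.01 CPM at P5 to 2.67, 2.62, 2.31 and 2.60 CPM at P7 (log2 fold change -1.75 ± 0.16, adjusted p = 1.31e-06), and E2f8, E2f7 and Foxm1 fell with log2 fold changes of -1.55, -1.47 and -1.28. The repressor E2f6 rose slightly, from 44.4, 43.6, 41.9 and 40.05 CPM at P5 to 51.5, 54.6, 59.9 and 51.7 CPM at P7 (log2 fold change 0.36 ± 0.08, adjusted p = 0.0051). E2f4 itself measured 42.1, 37.7, 41.2 and 42.3 CPM in the P5 libraries and 39.8, 41.9, 37.05 and 33.6 CPM in the P7 libraries, with overlapping passages (log2 fold change -0.10 ± 0.09, adjusted p = 0.48). Among 13 nuclear envelope and HMG genes 0 rose, 6 fell and the median was -0.14. Lmnb1, which encodes lamin B1, fell from 44.3, 28.8, 33.7 and 27.9 CPM at P5 to 14.2, 15.4, 14.5 and 10.99 CPM at P7 (log2 fold change -1.29 ± 0.13, adjusted p = 2.67e-06), and the other members that fell were Hmgb2 (-1.26), Tmpo (-1.08), Hmgb3 (-0.81), Lbr (-0.55) and Lmnb2 (-0.35). Hmgb2, Tmpo and Lbr stand in the G2/M list as well. Lmna (-0.09) and Hmga2 (-0.01) did not pass.

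Histone genes whose transcripts normally have no poly(A) tail ran the other way. Of 69 replication-dependent histone symbols 22 could be tested, 10 rose, 0 fell and the median was 0.81, and 10 of the 69 had no count in any of the 8 libraries. Summed over the list, the level was 218 to 302 CPM at P5 and 373 to 430 CPM at P7. Hist1h4h rose from 4.07, 3.39, 4.65 and 8.27 CPM at P5 to 17.6, 16.7, 11.3 and 15.4 CPM at P7 (log2 fold change 1.58 ± 0.24, adjusted p = 0.000115) and Hist1h2be rose from 3.88, 4.08, 4.26 and 5.03 CPM at P5 to 9.24, 11.8, 11.1 and 11.1 CPM at P7 (log2 fold change 1.32 ± 0.23, adjusted p = 0.000503), both without overlap. The coding sequences of these genes are near copies of each other, so reads could be split between them, and with a minimum of 10 counts in every library 3 rose. The median from P3 to P5 was 1.14.

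The promoters of the cell cycle genes are shown because their members moved together. CHR, the letters TTTGAA bound by DREAM and its activating counterparts, and an E2F motif, TTTNNCGC, were searched on both strands in the 250 bases before any RefSeq start site of each gene. CHR was found for 46.3% of G2/M genes, 26.1% of all genes called lower at P7 and 13.1% of all genes tested. The E2F motif was found for 37.2% of S-phase genes, 14.1% of genes called lower and 8.13% of all. CCAAT was found for 75.9% of G2/M genes, 72.1% of S-phase genes and 40.7% of all. Both were also found in the histone genes, which ran the other way, with CHR for 45.5% and CCAAT for 86.4% of 22. None of these motifs contains another, but their ends can share bases. Of the 3 E2F matches given for Mcm6, 2 overlap on opposite strands, so they fill 2 stretches of capitals. The 250 bases before the start sites of Mki67 (chr7:135716380-135716629, minus strand) and Hmgb2 (chr8:57511593-57511842, plus strand) hold 2 CHR letters each, those of Mcm6 (chr1:128359706-128359955, minus strand) 3 E2F matches and those of Brip1 (chr11:86201194-86201443, minus strand) 1, in RefSeq GRCm38.p6, written 5′ to 3′ on the strand of the gene with the matches or their reverse complement in capitals:
Mki67: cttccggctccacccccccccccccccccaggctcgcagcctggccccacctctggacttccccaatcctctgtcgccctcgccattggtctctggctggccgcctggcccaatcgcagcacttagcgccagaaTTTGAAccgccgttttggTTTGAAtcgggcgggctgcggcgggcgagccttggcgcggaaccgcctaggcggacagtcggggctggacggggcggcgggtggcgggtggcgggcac
Hmgb2: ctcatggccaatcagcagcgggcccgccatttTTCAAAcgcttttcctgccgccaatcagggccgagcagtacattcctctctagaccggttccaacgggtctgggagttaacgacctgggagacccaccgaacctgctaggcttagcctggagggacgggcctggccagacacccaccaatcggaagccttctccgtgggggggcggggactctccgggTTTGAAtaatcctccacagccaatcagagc
Mcm6: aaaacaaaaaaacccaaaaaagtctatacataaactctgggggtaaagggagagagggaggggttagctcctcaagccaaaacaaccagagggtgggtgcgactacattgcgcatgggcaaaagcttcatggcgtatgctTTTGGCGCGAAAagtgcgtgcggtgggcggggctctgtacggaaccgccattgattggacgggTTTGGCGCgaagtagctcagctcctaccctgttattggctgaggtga
Brip1: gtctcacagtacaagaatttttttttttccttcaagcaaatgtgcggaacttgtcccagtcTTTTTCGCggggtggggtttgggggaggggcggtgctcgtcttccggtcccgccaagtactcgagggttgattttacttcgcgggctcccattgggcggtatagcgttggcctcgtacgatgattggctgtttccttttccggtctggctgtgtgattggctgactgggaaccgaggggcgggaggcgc
Brip1 encodes a helicase of DNA repair, and its log2 fold change was -1.53 (adjusted p = 7.63e-05). A match of letters is a description and not a bound site.

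Cell cycle inhibitors moved in both directions. Of 11 genes 2 rose, 3 fell and the median was -0.18. Cdkn2a (chr4:89274473-89294619), whose locus encodes p16INK4a and p19ARF, measured 64.4, 72.7, 102 and 166 CPM in the P5 libraries and 269, 224, 179 and 225 CPM in the P7 libraries. P7 was above P5 without overlap (log2 fold change 1.15 ± 0.21, adjusted p = 0.000957), and within P5 replicates 3 and 4 were the highest. Its change from P3 to P5 had been 2.24, and the difference between the steps did not pass the test (-1.09 ± 0.37, adjusted p = 0.139). Cdkn1a, which encodes p21, measured 487, 485, 528 and 677 CPM in the P5 libraries and 675, 722, 641 and 682 CPM in the P7 libraries, with overlap through P5 replicate 4 (log2 fold change 0.32 ± 0.11, adjusted p = 0.0426). Cdkn2b, which encodes p15INK4b, measured 33.3, 39.00, 39.03 and 59.6 CPM in the P5 libraries and 54.9, 50.3, 49.7 and 63.2 CPM in the P7 libraries and did not pass (log2 fold change 0.35 ± 0.16, adjusted p = 0.153). The members that fell were Rbl1 (-0.96), the p107 pocket protein and itself an E2F target, Cdkn1b (-0.59), which encodes p27, and Trp53 (-0.24). Without P5 replicate 4 there were 4 members that rose. Without P5 replicate 1, 2 or 3, or P7 replicate 1 or 2, there was 1. Cdkn1a did not pass without P5 replicate 1, 2 or 3 or P7 replicate 1, 2 or 4 (adjusted p = 0.0596 to 0.137). Trp53 did not pass without P5 replicate 1 or 3 or P7 replicate 1, 3 or 4 (adjusted p = 0.0523 to 0.104).

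Of 27 p53 target genes 5 rose, 0 fell and the median was 0.11. Perp, a desmosome protein of the p53 response, rose from 0.84, 1.38, 0.646 and 1.65 CPM at P5 to 5.27, 6.17, 4.46 and 5.27 CPM at P7 (log2 fold change 2.22 ± 0.42, adjusted p = 0.00118). The others that rose were Plk3 (0.51), Btg2 (0.46), Ccng1 (0.35) and Cdkn1a (0.32). Mdm2 (0.26), Bax (0.07), Phlda3 (0.05) and Zmat3 (-0.07) did not pass. Without any 1 of P5 replicates 1, 3 and 4 or of P7 replicates 2, 3 and 4 there were 3 members that rose, and without P5 replicate 2 there was 1 that fell.

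**Figure D4:**
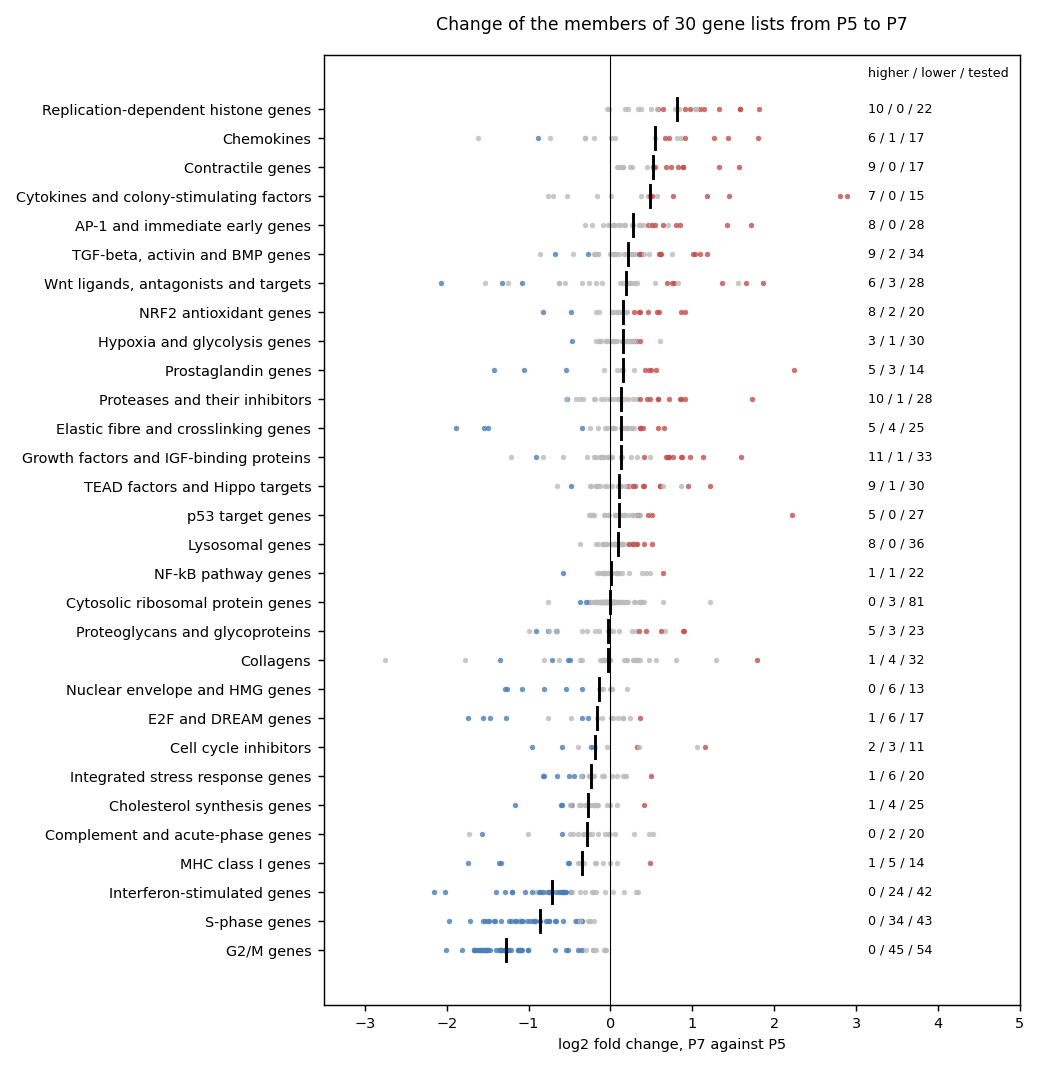
Log2 fold change at P7 against P5 of each tested member of 30 gene lists, red where it rose and blue where it fell at an adjusted p under 0.05 and grey otherwise, with a black bar at the list's median and counts of members higher, lower and tested at the right. G2/M, S-phase and interferon-stimulated genes lie at the low end with medians of -1.27, -0.86 and -0.71, and histone genes, chemokines, contractile genes and cytokines at the high end with medians of 0.81, 0.54, 0.52 and 0.48.

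Of the secreted signals, 6 of 17 chemokines rose and 1 fell, with a median of 0.54. Ccl2, which draws monocytes, measured 225, 236, 327 and 341 CPM in the P5 libraries and 635, 443, 526 and 516 CPM in the P7 libraries (log2 fold change 0.91 ± 0.15, adjusted p = 0.000237). Cxcl14 measured 71.8, 87.3, 83.5 and 53.5 CPM in the P5 libraries and 226, 259, 209 and 107 CPM in the P7 libraries (log2 fold change 1.43 ± 0.24, adjusted p = 0.000399), and Ccl11, which draws eosinophils, rose from 15.6, 21.2, 16.9 and 25.1 CPM at P5 to 71.4, 28.2, 43.9 and 46.02 CPM at P7 (log2 fold change 1.27 ± 0.21, adjusted p = 0.000349). Passages did not overlap in any of these genes. The other members that rose were Cxcl3 (1.80), Ccl8 (0.71) and Ccl7 (0.66). Cxcl12, the homeostatic ligand of CXCR4, fell from 141, 158, 180.1 and 126 CPM at P5 to 99.8, 68.3, 94.4 and 65.5 CPM at P7 (log2 fold change -0.89 ± 0.21, adjusted p = 0.00642), and Cxcl1 (0.05) and Cxcl10 (-1.62) did not pass. Without P5 replicate 4 there were 2 that fell.

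Among cytokines and colony-stimulating factors 7 of 15 rose, 0 fell and the median was 0.48. Il6 measured 5.30, 8.85, 4.52 and 2.38 CPM in the P5 libraries and 16.1, 9.64, 13.6 and 8.31 CPM in the P7 libraries, with P7 replicate 4 inside the range of P5 (log2 fold change 1.18 ± 0.33, adjusted p = 0.0193). Il11, a cytokine of the same receptor family, measured 2.39, 1.38, 2.84 and 2.32 CPM in the P5 libraries and 6.49, 6.79, 6.15 and 4.97 CPM in the P7 libraries without overlap (log2 fold change 1.44 ± 0.25, adjusted p = 0.000493). Tnfsf15, a ligand of the TNF family, was at 0.687 CPM in P7 replicate 1 and between 1.92 and 6.61 CPM in the other P7 libraries, against 0.258 to 0.646 CPM at P5 (log2 fold change 2.80 ± 0.61, adjusted p = 0.00366). The others were Tnfsf18 (2.89), Clcf1 (0.76), Lif (0.51) and Csf1 (0.48). With a minimum of 10 counts in every library, 4 of the list rose. Il6 did not pass without P7 replicate 1 (adjusted p = 0.0655), and without P5 replicate 3 or 4 or P7 replicate 4 there was 1 cytokine that fell.

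Among growth factors and IGF-binding proteins 11 of 33 rose, 1 fell and the median was 0.13. Besides Ereg they included Igfbp2 (1.13), Fgf2 (0.98), Angptl4 (0.87), Fgf7 (0.77), Hbegf (0.71), Igfbp5 (0.71), Fgf10 (0.71), Bdnf (0.67) and Igfbp7 (0.41). Igfbp2 measured 82.2, 82.1, 106 and 239.8 CPM in the P5 libraries and 249.6, 311, 238 and 318 CPM in the P7 libraries, with P5 replicate 4 at the level of P7 (log2 fold change 1.13 ± 0.36, adjusted p = 0.0361). Fgf2 shares exonic sequence with Nudt6 on the other strand. Igfbp3 fell from 11.6, 19.8, 16.3 and 13.2 CPM at P5 to 11.4, 5.09, 7.84 and 8.09 CPM at P7 (log2 fold change -0.91 ± 0.23, adjusted p = 0.00859), and Vegfa (-0.13), Igf1 (0.13) and Hgf (0.14) did not pass. Igfbp2 did not pass without P5 replicate 1, 2 or 3 or P7 replicate 2 or 4 (adjusted p = 0.0661 to 0.118), and without P5 replicate 3 or P7 replicate 4 there were 2 members that fell.

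Proteases and their inhibitors rose on both sides of the balance, with 10 of 28 higher, 1 lower and a median of 0.13. Mmp10, stromelysin-2, measured 2.46, 2.70, 1.03 and 2.12 CPM in the P5 libraries and 5.11, 8.87, 4.77 and 8.68 CPM in the P7 libraries (log2 fold change 1.72 ± 0.30, adjusted p = 0.000476). Plau, the urokinase plasminogen activator, measured 27.5, 25.2, 26.2 and 34.02 CPM in the P5 libraries and 43.6, 72.1, 52.4 and 44.2 CPM in the P7 libraries (log2 fold change 0.91 ± 0.15, adjusted p = 0.000367), and Timp1, an inhibitor of matrix metalloproteinases, measured 354, 279.9, 391 and 326 CPM in the P5 libraries and 689, 686, 530.2 and 543 CPM in the P7 libraries (log2 fold change 0.86 ± 0.11, adjusted p = 3.13e-05). In all of these genes P7 lay above P5 without overlap. Other members that rose were Mmp8 (0.85), Timp3 (0.72), Timp2 (0.58), Plat (0.48), Adamts4 (0.45) and Plaur (0.36), and Mmp11 fell (-0.54). Mmp3 (0.32), Mmp13 (-0.33) and Mmp2 (-0.12) did not pass. Without P5 replicate 1 or P7 replicate 4 there were 2 that fell.

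In prostaglandin metabolism 5 of 14 genes rose, 3 fell and the median was 0.15. Besides Ptgs2, the genes that rose encode the constitutive cyclooxygenase, Ptgs1 (0.50), the phospholipase that frees arachidonic acid, Pla2g4a (0.47), a terminal synthase, Ptges (0.42), and a prostaglandin transporter, Slco2a1 (0.56). Hpgd, the enzyme that inactivates prostaglandins, fell from 3.17, 4.22, 2.97 and 2.05 CPM at P5 to 1.83, 0.849, 1.46 and 1.78 CPM at P7 (log2 fold change -1.06 ± 0.26, adjusted p = 0.00898), and the receptors Ptger3 (-1.42) and Ptgir (-0.55) fell. Without P5 replicate 2, P5 replicate 4 or P7 replicate 2 there were 3 members that rose and without P7 replicate 3 there were 2, and without P5 replicate 4 there was 1 that fell. Of 22 NF-kB pathway genes 1 rose (Vcam1 (0.64)), 1 fell (Irf1 (-0.57)) and the median was 0.01, with Nfkbia (-0.14), Tnfaip3 (0.43) and Icam1 (-0.03) among those that did not pass. Without P7 replicate 4 there were 2 that rose.

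Of 28 AP-1 and immediate early genes 8 rose, 0 fell and the median was 0.28. The members with the largest changes were the NR4A orphan nuclear receptors. Nr4a1 measured 40.7, 32.01, 49.1 and 32.8 CPM in the P5 libraries and 119, 143, 94.6 and 56.9 CPM in the P7 libraries (log2 fold change 1.42 ± 0.19, adjusted p = 4.32e-05) and Nr4a3 measured 4.91, 4.98, 4.26 and 3.18 CPM in the P5 libraries and 14.05, 14.7, 19.1 and 9.13 CPM in the P7 libraries (log2 fold change 1.71 ± 0.23, adjusted p = 3.28e-05), both without overlap and both lowest among the P7 libraries in replicate 4. Nr4a2, Egr1, Maff, Dusp1 and Mafk rose with log2 fold changes of 0.80, 0.85, 0.65, 0.50 and 0.46. Fos measured 10.9, 11.2, 14.6 and 10.5 CPM in the P5 libraries and 20.5, 19.4, 11.7 and 17.5 CPM in the P7 libraries, where P7 replicate 3 lay within P5 (log2 fold change 0.55 ± 0.16, adjusted p = 0.0196). The other AP-1 subunits did not pass, with Junb (0.28), Jund (0.09), Jun (0.17), Fosl1 (0.70) and Fosl2 (0.12). Atf3, a stress-induced member of the CREB family, measured 12.7, 11.4, 14.99 and 18.3 CPM in the P5 libraries and 10.5, 12.8, 9.45 and 26.4 CPM in the P7 libraries (log2 fold change 0.04 ± 0.23, adjusted p = 0.926), and P7 replicate 4 alone was above P5. Fos did not pass without P5 replicate 1 or P7 replicate 1 or 2 (adjusted p = 0.06 to 0.0639), and without P5 replicate 2 there was 1 member that fell.

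The AP-1 letters TGANTCA were found in the same 250 bases for 13.2% of the 159 genes called higher with a start site and 5.84% of all genes, and also for 19% of the 42 interferon-stimulated genes, which fell. Of the same sets, genes called higher and all genes, the CRE letters TGACGTCA were found for 2.52% and 3.06%. The promoters of the secreted factors Mmp10 (chr9:7502092-7502341, plus strand) and Il11 (chr7:4778142-4778391, minus strand) are shown as examples from GRCm38.p6, with the AP-1 match in capitals. The Il11 promoter lies before start site 2 of 2.
Mmp10: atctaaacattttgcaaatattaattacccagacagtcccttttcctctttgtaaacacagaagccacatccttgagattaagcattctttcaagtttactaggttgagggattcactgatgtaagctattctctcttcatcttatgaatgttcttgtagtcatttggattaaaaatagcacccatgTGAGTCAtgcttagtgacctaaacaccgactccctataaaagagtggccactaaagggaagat
Il11: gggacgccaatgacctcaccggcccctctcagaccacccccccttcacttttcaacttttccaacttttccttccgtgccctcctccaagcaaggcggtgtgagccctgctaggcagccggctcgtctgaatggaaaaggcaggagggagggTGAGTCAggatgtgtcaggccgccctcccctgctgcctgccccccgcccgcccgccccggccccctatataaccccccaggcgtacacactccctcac

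Of 30 TEAD factors and Hippo targets 9 rose, 1 fell and the median was 0.11. Ankrd1, a YAP target, measured 13.1, 11.8, 10.4 and 7.15 CPM in the P5 libraries and 22.7, 28.8, 24.5 and 22.6 CPM in the P7 libraries (log2 fold change 1.22 ± 0.15, adjusted p = 1.95e-05). Ccn2 and Ccn1, matricellular targets of the same pathway, rose by 0.60 and 0.40, and the others that rose were Fjx1 (0.95), Crim1 (0.61), Lats2 (0.41), Wwtr1 (0.30), Asap1 (0.28) and Yap1 (0.22). Tead1 itself measured 430.3, 456, 339 and 362 CPM in the P5 libraries and 279, 406, 409 and 417 CPM in the P7 libraries, with overlap (log2 fold change -0.07 ± 0.12, adjusted p = 0.75), and Tead2 fell (-0.48). Without P5 replicate 3 or P7 replicate 2 there were 5 members that rose.

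Interferon-stimulated genes fell. Of 42 tested 0 rose, 24 fell and the median was -0.71, and their summed level was 851 to 1330 CPM at P5 and 748 to 871 CPM at P7, which overlapped. Oasl2, of the oligoadenylate synthetase family, measured 14.1, 13.7, 6.40 and 19.00 CPM in the P5 libraries and 4.27, 3.09, 2.15 and 3.56 CPM in the P7 libraries (log2 fold change -2.02 ± 0.28, adjusted p = 5.64e-05). Iigp1, an immunity-related GTPase, measured 4.98, 2.28, 0.905 and 2.45 CPM in the P5 libraries and 0.611, 0.463, 0.538 and 0.742 CPM in the P7 libraries (log2 fold change -2.15 ± 0.45, adjusted p = 0.00237). Both were lower in every P7 library, and both varied about 3-fold or more within P5. Further members that fell were Mx2 (-1.40), Rtp4 (-1.29), Trim30a (-1.21), Ifit1 (-1.20), Usp18 (-1.04), Irf7 (-0.96) and Ifih1 (-0.87). The genes Ifit2 (0.31), Ifit3 (0.16), Rsad2 (-0.06) and Isg15 (-0.84) did not pass. The median from P3 to P5 was 0.13. With limma-voom and sample quality weights 14 members fell, and without P5 replicate 2 or 4 or P7 replicate 2 there was 1 that rose.

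ISRE, here GAAA, any 2 bases and GAAA again, the element read by interferon regulatory factors, was found within 250 bases before a start site for 52.4% of these genes and 3.57% of all genes. The promoters of Trim30a (chr7:104465194-104465443, minus strand, before start site 1 of 2) and Ifit1 (chr19:34640639-34640888, plus strand) are shown with the matches or their reverse complement in capitals.
Trim30a: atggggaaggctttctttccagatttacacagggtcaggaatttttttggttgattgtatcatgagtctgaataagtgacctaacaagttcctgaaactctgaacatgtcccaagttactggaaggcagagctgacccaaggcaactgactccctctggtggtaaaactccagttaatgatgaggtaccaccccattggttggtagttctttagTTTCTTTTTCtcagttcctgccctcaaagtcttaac
Ifit1: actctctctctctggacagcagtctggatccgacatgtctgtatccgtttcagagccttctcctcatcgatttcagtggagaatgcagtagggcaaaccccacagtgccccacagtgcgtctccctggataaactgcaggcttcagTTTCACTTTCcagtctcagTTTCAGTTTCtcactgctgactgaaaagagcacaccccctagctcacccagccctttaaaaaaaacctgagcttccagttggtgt

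Of 14 MHC class I genes 1 rose, 5 fell and the median was -0.35. H2-Q4 fell from 19.3, 19.7, 20.7 and 30.3 CPM at P5 to 11.8, 8.26, 7.46 and 7.65 CPM at P7 (log2 fold change -1.36 ± 0.16, adjusted p = 8.43e-06) and Psmb8, an immunoproteasome subunit, fell from 8.08, 7.95, 9.24 and 12.7 CPM at P5 to 5.50, 2.62, 3.54 and 3.41 CPM at P7 (log2 fold change -1.33 ± 0.22, adjusted p = 0.000356). Passages did not overlap in these genes, and reads of the H2 family may be shared between its members. The others that fell were Psmb9 (-1.74), H2-K1 (-0.51) and Nlrc5 (-0.51), H2-T23 rose (0.48), and B2m (-0.18) and H2-D1 (-0.33) did not pass. H2-T23 did not pass, so that 0 members rose, without P5 replicate 1, 2 or 3 or P7 replicate 1 or 2 (adjusted p = 0.0732 to 0.138). Psmb9 did not pass without P5 replicate 1, 2 or 4 or P7 replicate 2, 3 or 4 (adjusted p = 0.0659 to 0.102). Of 20 complement and acute-phase genes 0 rose, 2 fell and the median was -0.28. They were C4b, from 8.21, 8.23, 8.85 and 8.34 CPM at P5 to 3.36, 2.16, 3.38 and 2.45 CPM at P7 (log2 fold change -1.56 ± 0.32, adjusted p = 0.00193), and C1ra (-0.59). Without P7 replicate 4 there were 4 that fell.

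Contractile genes rose, with 9 of 17 higher, 0 lower and a median of 0.52 beside -0.20 from P3 to P5. Cnn1, calponin, measured 81.7, 88.9, 73.8 and 75.8 CPM in the P5 libraries and 188, 273, 189.8 and 153 CPM in the P7 libraries (log2 fold change 1.33 ± 0.16, adjusted p = 1.1e-05). Mylk, the myosin light chain kinase, rose from 16.7, 20.3, 13.2 and 18.3 CPM at P5 to 30.2, 36.4, 31.3 and 28.5 CPM at P7 (log2 fold change 0.88 ± 0.22, adjusted p = 0.00814). Besides Myh11 the others were Lmod1 (0.88), Myl9 (0.82), Itga8 (0.74), Tagln (0.67), Tpm2 (0.55) and Tpm1 (0.52). Acta2, the smooth muscle actin often used to mark myofibroblasts, did not pass (log2 fold change 0.23 ± 0.16, adjusted p = 0.342).

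Among matrix genes, collagens passed the test at shares near those of all genes. Of 32 collagens 1 rose (3.12%, beside 7.67% of all genes), 4 fell (12.5%, beside 9.1%) and the median was -0.03. The main fibrillar collagens Col1a1 (-0.01), Col1a2 (-0.10) and Col3a1 (0.20) did not pass. Col23a1, a transmembrane collagen, fell from 25.6, 28.4, 33.4 and 21.98 CPM at P5 to 11.3, 7.87, 15.99 and 7.65 CPM at P7 (log2 fold change -1.35 ± 0.22, adjusted p = 0.000247), and Col14a1 (-0.72), Col11a1 (-0.52) and Col6a3 (-0.49) fell. Without P7 replicate 1 there was 1 collagen that fell, and without P7 replicate 2 or 3 there were 2. Collagens that rose numbered 6 without P5 replicate 4 or P7 replicate 1, 2 without P7 replicate 3 and 0 without P7 replicate 4. Of 25 elastic fibre and crosslinking genes 5 rose (20%), 4 fell (16%) and the median was 0.13. Fibre proteins that fell were Fbn2, fibrillin-2, from 28.3, 40.3, 26.9 and 35.02 CPM at P5 to 13.3, 12.04, 9.61 and 11.4 CPM at P7 (log2 fold change -1.49 ± 0.17, adjusted p = 7e-06), Mfap4 from 7.75, 9.20, 10.7 and 6.55 CPM at P5 to 2.67, 2.55, 3.00 and 1.04 CPM at P7 (log2 fold change -1.89 ± 0.31, adjusted p = 0.00026), Eln (-1.55) and Fbn1 (-0.34). The crosslinking enzymes Loxl2 (0.65) and Lox (0.36) rose, with Ltbp1 (0.59), Efemp2 (0.39) and Emilin1 (0.36). Without P5 replicate 1 or P7 replicate 1 there were 2 members that rose, and without P7 replicate 2 or 3 there were 3.

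Of 23 proteoglycans and glycoproteins 5 rose, 3 fell and the median was -0.03. Spp1, osteopontin, measured 1132, 1115, 948 and 639 CPM in the P5 libraries and 2106, 1560.0, 1969 and 1523 CPM in the P7 libraries (log2 fold change 0.90 ± 0.15, adjusted p = 0.000391). Lum (0.89), Tnc (0.61), Sparc (0.44) and Thbs1 (0.35) rose, and Ogn (-0.91), Thbs3 (-0.76) and Vcan (-0.66) fell. Without P7 replicate 2 there were 3 members that rose and without P7 replicate 3 there were 2. Without P5 replicate 3 or P7 replicate 4 there were 5 that fell.

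Of 34 TGF-beta, activin and BMP genes 9 rose, 2 fell and the median was 0.21. Inhba, the activin A chain, measured 389, 476, 303 and 422 CPM in the P5 libraries and 751, 824, 898 and 1131 CPM in the P7 libraries (log2 fold change 1.18 ± 0.15, adjusted p = 1.87e-05). Grem1, a secreted BMP antagonist, measured 465, 503, 453 and 426 CPM in the P5 libraries and 835, 867, 1116 and 965 CPM in the P7 libraries (log2 fold change 1.03 ± 0.10, adjusted p = 1.39e-06), and Gdf6, a BMP ligand, rose from 17.1, 15.6, 18.2 and 14.8 CPM at P5 to 28.8, 41.2, 37.9 and 32.4 CPM at P7 (log2 fold change 1.09 ± 0.12, adjusted p = 5.88e-06). No library of P5 reached P7 in any of these genes. Others that rose were Fst (1.01), the activin antagonist follistatin, Inhbb (0.62), Smad7 (0.59), Nbl1 (0.38) and Gdf11 (0.34), and Tgfbr2 (-0.28) and Tgfbi (-0.68) fell. Without any 1 of P5 replicates 1, 2 and 3 or P7 replicates 2, 3 and 4 there was 1 that fell.

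Of 28 Wnt ligands, antagonists and targets 6 rose, 3 fell and the median was 0.19. Wif1, a secreted Wnt inhibitor, and Wnt11, a non-canonical ligand, rose at levels of at most 5.09 CPM (log2 fold changes 1.87 and 1.65), and Wnt2b (1.36), Frzb (0.77), Nkd2 (0.75) and Wnt4 (0.69) rose. Reads of Wnt2b cannot be told from those of St7l on the other strand. Besides Sfrp2, Wnt16 (-1.32) and Lef1 (-1.08) fell. Without P5 replicate 4 there were 10 members that rose, and without P7 replicate 3 there was 1 that fell.

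Among metabolic and stress lists, 8 of 20 NRF2 antioxidant genes rose, 2 fell and the median was 0.15. Hmox1, haem oxygenase-1, measured 327, 319, 349 and 378 CPM in the P5 libraries and 620.4, 678, 558 and 637 CPM in the P7 libraries (log2 fold change 0.86 ± 0.08, adjusted p = 1.58e-06), and Nqo1 measured 28.4, 29.5, 21.7 and 37.7 CPM in the P5 libraries and 47.3, 63.4, 44.3 and 65.2 CPM in the P7 libraries (log2 fold change 0.91 ± 0.17, adjusted p = 0.00083). Both were separated from P5 in every library. Ftl1 (0.59), Osgin1 (0.57), Fth1 (0.46), Taldo1 (0.36), Gclm (0.35) and Srxn1 (0.28) rose, and Slc7a11 (-0.82) and G6pdx (-0.48) fell. Without P5 replicate 1 there was 1 that fell.

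Of 20 integrated stress response genes 1 rose (Nupr1 (0.49)), 6 fell and the median was -0.24. Slc7a5, an amino acid transporter, measured 242, 203, 244 and 292 CPM in the P5 libraries and 129, 157, 135 and 138 CPM in the P7 libraries (log2 fold change -0.81 ± 0.10, adjusted p = 9.99e-06), and Psat1, of serine synthesis, measured 376, 311, 334 and 265 CPM in the P5 libraries and 202, 238, 209 and 167 CPM in the P7 libraries (log2 fold change -0.65 ± 0.11, adjusted p = 0.000259), both lower in every P7 library. The other members that fell were Slc7a11 (-0.82), Trib3 (-0.51), Shmt2 (-0.44) and Asns (-0.35), while the factors Atf4 (0.02) and Ddit3 (0.18) did not pass. Nupr1 did not pass without P5 replicate 1, 2 or 3 or P7 replicate 1 or 4 (adjusted p = 0.0615 to 0.0854), so 0 members rose there.

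Of 36 lysosomal genes 8 rose, 0 fell and the median was 0.10, led by Ppt1 (0.50), Atp6v1h (0.40), Npc2 (0.33) and Ctsd (0.32). Glb1, the lysosomal beta-galactosidase, did not pass (log2 fold change 0.21 ± 0.08, adjusted p = 0.0868). Without any 1 of P5 replicates 1, 2 and 3 and P7 replicate 1 there were 4. Of 25 cholesterol synthesis genes 1 rose (Hsd17b7 (0.41)), 4 fell (among them Dhcr7 (-0.61) and Stard4 (-0.59)) and the median was -0.28. Without P5 replicate 4 there were 10 that fell and without P7 replicate 1 there were 8. Of 30 hypoxia and glycolysis genes 3 rose (Pfkfb4 (0.36), P4ha2 (0.31) and P4ha1 (0.29)), 1 fell (Ndrg1 (-0.46)) and the median was 0.15. Without P7 replicate 2 there were 0 that rose, without P5 replicate 1 or P7 replicate 3 there was 1, and without P7 replicate 4 there were 5. Of 81 cytosolic ribosomal protein genes 0 rose, 3 fell (Rpl3 (-0.38), Rpsa (-0.30) and Rpl7 (-0.27)) and the median was -0.01, and without P7 replicate 1 there were 13 that fell. Leaving out any 1 of the other libraries except P5 replicate 4 left 1 that fell. Without P5 replicate 4 there were 2 that rose and without P7 replicate 4 there was 1.

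Other named genes lost an adjusted p under 0.05 when 1 library was left out. With at least 4 of the 8 libraries each left out in turn this held for Col11a1, Npc2, P4ha1, P4ha2, Plk3, Ptgir, Ptgs1, Rpl7, Rpsa, Slco2a1, Tgfbi, Tnc and Wnt16, and with 1 to 3 of them for Col14a1, Efemp2, Eln, G6pdx, Lef1, Lum, Pfkfb4, Ptger3 and Wnt2b.

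Since P5 replicates 3 and 4 stood apart on the first principal component, the lists were also counted without both. The members that rose then numbered 4 of the TEAD list, 3 of the NF-kB list, 5 collagens, 2 proteoglycans and glycoproteins, 5 hypoxia and glycolysis genes and 10 ribosomal protein genes, and 7 cholesterol synthesis genes and 1 prostaglandin gene fell. The counts of S-phase, G2/M and contractile genes, of chemokines, cytokines and growth factors that rose and of interferon-stimulated genes that fell stayed within 1.5 times those above.

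A test of the change from P5 to P7 minus the change from P3 to P5 passed for 176 genes (1.31%), 90 more positive (0.67%) and 86 more negative (0.64%) at the last step. It turns on the P5 libraries: without P5 replicate 1, 3 or 4 there were 111, 39 and 48 genes, without P7 replicate 1 or 3 there were 329 and 89, and without both P5 replicates 3 and 4 there were 2. Among the named genes the difference was positive for Ptgs2 (2.76 ± 0.35, adjusted p = 0.00135), Cd24a (2.96 ± 0.45, adjusted p = 0.00302), Nr4a3 (2.07 ± 0.41, adjusted p = 0.0221), Inhba (1.88 ± 0.27, adjusted p = 0.00209), Ankrd1 (1.83 ± 0.28, adjusted p = 0.00302) and Ereg (2.01 ± 0.31, adjusted p = 0.00302). From P3 to P5 the log2 fold changes of these genes had been -0.52, -0.61, -0.36, -0.70, -0.61 and -0.42. It was negative for Ldb2 (-1.97 ± 0.26, adjusted p = 0.00135), Avil (-1.86 ± 0.29, adjusted p = 0.00302) and Oasl2 (-2.21 ± 0.44, adjusted p = 0.0227), which had changed by -0.20, -0.05 and 0.19 from P3 to P5.

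Genes called between P5 and P7 were then read in the RNA-seq libraries in which the study altered single factors, libraries that took no part in choosing them. By the methods these were primary fibroblasts of newborn and adult mice carrying lentiviral constructs, with expression of E2f4 induced by doxycycline. The paper places E2f4 overexpression in pre-senescent cells at P4, E2f4 knockdown in proliferating cells at P3 and Atf3 knockdown in pre-senescent cells. The experiments thus began at different stages, and the labels of these libraries give no passage. Their cells differ from the passage series, since 4 Y-linked genes had counts in 28 of 28 factor libraries and in 0 of the 16 passage libraries. E2f4 was overexpressed (2 libraries against 2 with vector), and short hairpins against E2f4 (sh1), Tead1 (sh3 and sh4) and Atf3 (sh5 and sh6) were each set against a non-targeting hairpin (3 libraries each). The targeted gene moved in the direction of its label: E2f4 from 35.5 to 47.5 CPM to 1118 to 1180 CPM on overexpression and from 59.6 to 60.8 CPM to 20.4 to 21.8 CPM with sh1, and Tead1 from 508 to 572 CPM to 268 to 285 CPM with sh3 and 313 to 320 CPM with sh4. Atf3 was low in its controls, 2.77 to 3.31 CPM, and 0.451 to 2.10 CPM with sh5 (adjusted p = 0.0447) and 1.51 to 2.09 CPM with sh6 (adjusted p = 0.114), so a knockdown by sh6 did not pass the test.

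With E2f4 overexpression, 68 of 138 tested genes that were higher at P7 were lower (49.3%, against 28.2% of all genes tested there), and 136 of 268 genes that were lower at P7 were higher (50.7%, against 28.9%). With E2f4 sh1, 55 of 122 genes higher at P7 were higher (45.1%, against 10% of all), and 98 of 257 genes lower at P7 were lower (38.1%, against 7.79%). The 2 overexpression libraries also stood apart from their controls in sex-linked genes, with a summed level of the 4 Y-linked genes of 20.3 and 15.6 CPM against 68.6 and 66.4 CPM with vector. Xist, the RNA that coats the inactive X chromosome, stood at 685 and 555 CPM against 1417 and 1150 CPM, all on total counts without TMM scaling. The part of this difference in the shares for overexpression was not tested. Without control replicate 1, 2 or 3 the count of genes lower at P7 and lower with sh1 was 60, 59 and 57. Of S-phase genes 29 of 43 rose on overexpression and 19 fell with sh1. Among the genes named above, and picked here after their values were seen, Cd53, Ptgs2, Inhba and Stc1 changed by -2.95, -1.41, -1.58 and -0.84 on overexpression, all past an adjusted p of 0.05. With sh1 they changed by 0.72, 0.43, 0.61 and 0.31, and Stc1 did not pass. Il11 ran otherwise, with 1.44 on overexpression and 1.17 with sh1. Interferon-stimulated genes, which fell from P5 to P7, were higher with E2f4 sh1 in 39 of 41, against 10% of all genes. With the Tead1 hairpins 37 (sh3) and 14 (sh4) of 40 were higher, against 17.6% and 14.4% of all genes. With the Atf3 hairpins 13 (sh5) and 14 (sh6) of 40 were lower, against 18.1% and 26% of all genes.

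With the Tead1 hairpins, 36 and 20 of 143 genes higher at P7 were higher with sh3 and sh4 and 42 and 33 were lower, against 17.6% and 14.4% higher and 17.7% and 14.7% lower over all genes. Of 266 genes lower at P7, 54 and 76 were higher and 37 and 11 were lower. Without replicate 3 of the non-targeting control, 13 of the genes higher at P7 were higher with sh4. Of genes also picked after their values were seen, all past an adjusted p of 0.05, Ptgs2 was lower with both (-0.84 and -0.87), as were Ankrd1 (-0.36 and -0.26), Myh11 (-0.57 and -0.50) and Cnn1 (-0.44 and -0.27), while Ereg was higher (0.34 and 0.45). Contractile genes were lower in 12 and 9 of 17.

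The Atf3 hairpins differed from each other. Their libraries also differed in sex-linked genes, on total counts without TMM scaling. Xist stood at 411 to 471 CPM with sh5, 194 to 265 CPM with sh6 and 306 to 330 CPM with the non-targeting hairpin. The 4 Y-linked genes summed to 201 to 241, 207 to 233 and 159 to 185 CPM in the same order. The part of this difference in the counts of this experiment was not tested. Of 145 genes higher at P7, 41 were higher and 19 lower with sh5 (17.7% and 18.1% over all genes), and 67 were higher and 21 lower with sh6 (46.2% and 14.5%, against 23.8% and 26% over all). Of 275 genes lower at P7, 46 were higher and 54 lower with sh5, and 15 were higher and 128 lower with sh6 (46.5%). Without replicate 2 of the non-targeting control, the genes past the test with sh5 in either direction went from 160 to 102, and those lower at P7 and higher with sh5 went from 46 to 22, and to 19 without its replicate 3. Of genes picked in the same way and past the same threshold, Ptgs2 was higher with both (1.55 and 3.24), as were Ereg (1.35 and 3.11), Il6 (1.67 and 2.64) and Cd53 (2.46 and 1.93). Myh11 was lower with sh5 (-1.47) and higher with sh6 (1.91), and Ankrd1 likewise (-0.47 and 2.59). Oasl2 was lower with both (-2.24 and -2.20).

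**Figure D5:**
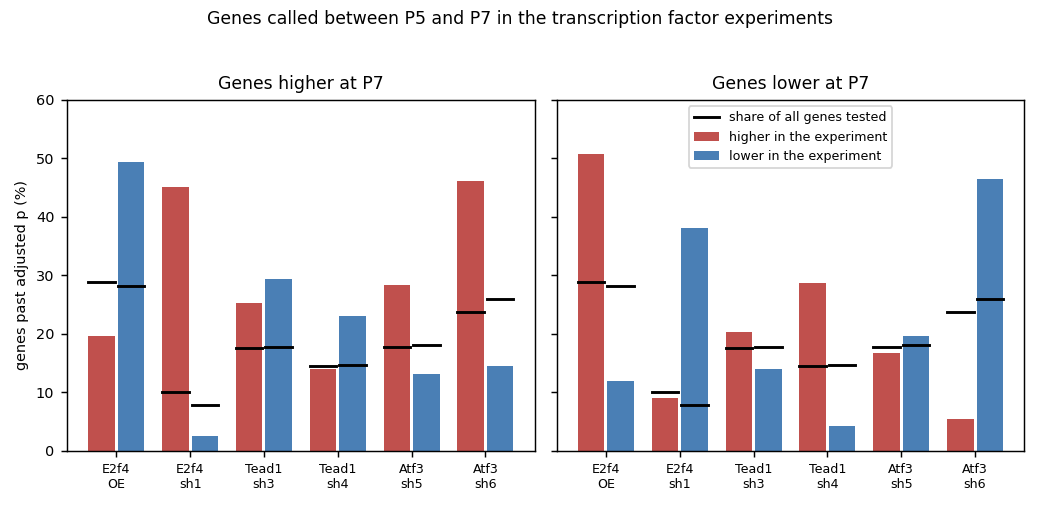
Share of the genes called higher (left) or lower (right) at P7 that passed an adjusted p of 0.05 in each factor experiment, higher (red) or lower (blue) against its control, with black lines at the share of all genes tested in that experiment. E2f4 overexpression and E2f4 sh1 lie on opposite sides (49.3% of genes higher at P7 fell on overexpression and 45.1% rose with sh1), and with Atf3 sh6 46.2% of genes higher at P7 rose and 46.5% of genes lower at P7 fell.

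Open chromatin at the promoters was read from ATAC-seq peaks in 3 samples each of P5 and P7, as the -log10 p that MACS2 gave within each sample. With 3 samples against 3 no exact two-sided p can fall under 0.1, so the values are a description. A peak within 1000 bases of a start site was present in all 6 samples for 119 of 159 genes called higher (74.8%), 269 of 306 called lower (87.9%) and 92.6% of all genes tested. The strongest peak of genes called higher stood at a median percentile of 71.9 among the peaks of its sample at P5 and 70.9 at P7. For genes called lower the percentiles were 89.7 and 87.9, and for all genes 91.2 and 90.3. A peak in all 3 P7 samples and in no P5 sample was found for 1 gene called higher, and the reverse for 0 called genes. Over all 13400 genes with a start site these numbers were 11 and 9, so such genes were too rare for a comparison. Genes that fell went both ways: Mfap4 had a peak in 1 P5 sample and in 0 P7 samples, and C4b in 1 and in 3. The percentiles of Mki67 were 85.2, 83.8 and 87.2 at P5 and 90.4, 91.4 and 92.4 at P7. Those of Lmnb1 were 85.1, 85.3 and 84.8 at P5 and 79.4, 78.9 and 79.2 at P7. Among genes with a peak in all samples, the P7 percentiles lay below P5 without overlap for 9.24% of those called higher, 23.4% of those called lower and 18.5% of all, and above P5 for 8.4%, 6.69% and 6.61%. The peak lists held 222803 to 265932 lines at P5 and 255276 to 261834 at P7, and the part of their length in these percentiles was not tested.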

How the data were processed

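RNA-seq counts of the 16 passage libraries and of 28 factor libraries were used, with groups and replicate numbers from the sample labels. The deposited values are raw counts, made by the authors with Trimmomatic 0.39 for trimming, Hisat2 2.2.1 for alignment to mm10 and HTSeq 0.12.4 for unstranded counting per gene. ATAC-seq peaks were called by the authors in each sample with MACS2, and the deposited strength of a peak used here is its -log10 p. The fold enrichment that the authors deposited with each peak, a ratio to the local background, was not used. Peak lists hold no read counts, so their depth is unknown.

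Counts were filtered with filterByExpr, scaled with TMM and fitted over the 16 passage libraries with edgeR 4.0.16 (quasi-likelihood test, R 4.3.3), with the contrast P7 minus P5 and Benjamini-Hochberg adjustment over 13442 genes. Each factor experiment was fitted on its own. The test was checked on simulated counts with 200 changed genes. Genes named were 18 chosen by name, the 10 highest and 10 lowest called genes whose passages did not overlap and whose log2 CPM averaged 3 or more, and up to 3 members per list and direction past an adjusted p of 0.05. Further list members are given by fold change, and the values of some list members are not reported here. Counts of genes sharing exonic bases with another gene on the other strand are uncertain, among those named Atp1b1, Fgf2, Crim1, G6pdx, Ppt1 and Wnt2b (with tested genes) and Ereg, Ldb2, Cck, Mylk, Il11, Eln and Tnc (with genes not tested). Members and lists were chosen with earlier results of these data known. Start sites, promoters and coordinates are from RefSeq GRCm38.p6, the assembly of mm10, matched for 13400 of the 13442 genes, and sequences were read with pysam 0.24.0. Alternatives were DESeq2 1.42.0, its size factors, no filter or at least 10 counts in every library, only the P5 and P7 libraries, limma-voom (limma 3.58.1) with sample quality weights, the replicate number as a block, each library left out, a peak threshold of -log10 q of at least 5 and a window of 500 bases.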

Additional observations from a re-analysis of the deposited data

Results flagged for a closer look

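Among 288 groups of 4 libraries of named genes and list sums, 13 (4.51%) had 1 library farther from the others than Dixon's 95% critical value allows, and chance flags about 1 in 20. In P5 replicate 4, Igfbp2 was at 240 CPM against 82.1 to 106 in the others, Nupr1 at 90.2 against 66.0 to 69.8, Crim1 at 84.8 against 67.4 to 68.4, H2-Q4 at 30.3 against 19.3 to 20.7 and Avil at 14.7 against 10.9 to 11.4. In P5 replicate 1, Ltbp1 was at 101 CPM against 69.3 to 74.4 and Lum at 6.07 against 9.40 to 9.68, and in P5 replicate 3 Fos was at 14.6 against 10.5 to 11.2. In P7 replicate 1, Tead1 was at 279 CPM against 406 to 417 and Atp6v1h at 203 against 168 to 170. Trp53 was at 112 CPM in P7 replicate 2 against 96.2 to 98.4, Troap at 1.46 in P7 replicate 3 against 1.91 to 1.93, and the summed G2/M genes at 1207 in P7 replicate 4 against 1340 to 1364.

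For 25 named genes the change from P5 to P7 differed from the change from P3 to P5 by edgeR's quasi-likelihood test of the difference, on the log2 scale. The difference was positive for Ptgs2 (2.76), Cd24a (2.96), Nr4a3 (2.07), Ereg (2.01), Stc1 (1.94), Inhba (1.88), Ankrd1 (1.83), Egr1 (1.81), Atp1b1 (1.66), Nr4a1 (1.40), Cnn1 (1.31), Ltbp1 (1.07), Timp1 (0.81), Grem1 (0.77), Hmox1 (0.64) and E2f6 (0.59). It was negative for Oasl2 (-2.21), Ldb2 (-1.97), Avil (-1.86), Col23a1 (-1.45), Mmp11 (-1.20), Fbn2 (-1.18), Thbs3 (-1.15), H2-Q4 (-1.1) and C1ra (-0.98). Both steps share the P5 libraries.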

How the results depend on the processing

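The 467 called genes became 296 with at least 10 counts in every library, where 169 of them were not tested, and 398 to 526 when 1 library was left out. The 160 called higher became 79 with that filter, 244 without P5 replicates 3 and 4 (chosen after seeing the data) and 132 to 201 leaving out 1 library, and the 307 called lower became 266 to 325. Genes past the adjusted p alone went from 2254 to 1187 when only the P5 and P7 libraries were fitted (581 higher, 606 lower) and to 1582 to 2607 leaving out 1 library (684 to 1223 higher, 898 to 1384 lower). The step difference went from 176 genes to 525 with DESeq2, 2 without P5 replicates 3 and 4, and 39 to 329 leaving out 1 library. The first principal component held 50.9% of the variance over the 500 most variable genes in place of 37.2%. Genes past the test with Atf3 sh5 numbered 102 to 169 leaving out 1 library. The cause of these differences was not tested.

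None of the 467 called genes changed sign under any alternative run. Of 134 named genes 42 lost an adjusted p under 0.05 in at least 1 alternative. Reversals were of genes that did not pass: Atf3 at -0.12 with limma-voom and quality weights, -0.0040 with the replicate block, -0.01, -0.05 and -0.39 without P5 replicate 1, P5 replicate 2 and P7 replicate 4 (-0.392 to 0.212 leaving out 1 library), Jund at -0.01, -0.0608 and -0.03 without P5 replicate 1, P5 replicate 2 and P7 replicate 1 (-0.0608 to 0.251 leaving out 1 library), and Tead1 at 0.0366 with quality weights, 0.0014 without P5 replicate 2 and 0.0485 without P7 replicate 1 (-0.140 to 0.0485 leaving out 1 library). As a block, the replicate number gave 474 called genes (454 of the 467) and 233 step differences. Deviations of log2 CPM from the passage mean were correlated between P5 and P7 libraries. They gave -0.26 to 0.21 for same-numbered libraries and -0.32 to 0.20 for the other pairs. By this measure 1 P5 library correlated best with its own number, so the numbers were not taken to pair samples. With only the P5 and P7 libraries 1 p53 target, 5 TEAD, 2 lysosomal and 4 NRF2 genes rose, and other list counts also moved. In all, list counts were within 1.5 times the main count in 1077 cases and moved in 171. Depth limits genes under about 1 CPM, such as Dscc1, Tnfsf15 and Cbln1.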

Other observations

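Xist, named after its values were seen, measured 379, 638, 355 and 370.2 CPM in the P5 libraries and 256, 210, 382 and 388 CPM in the P7 libraries, with overlap (log2 fold change -0.50 ± 0.18, adjusted p = 0.0706 by edgeR's quasi-likelihood test). Its mean was 753 CPM at P1 and 637 CPM at P3. Of 438 X-linked genes tested 33 rose and 46 fell between P5 and P7, with a median log2 fold change of -0.04, beside -0.01 over the autosomes.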
